A study of Dunaliella tertiolecta UTEX 'LB 999' with 2 samples.

Results

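Among 234 transcript contigs that the authors listed as different between 2 mRNA libraries of a green alga, 10 carried the name of a ubiquitin carrier, a proteasome component, a protease or a peptidase. They were found by the gene symbols UBC10, DEG2 and CLPT1 or by the words ubiquitin, proteasome, protease or peptidase in the protein description. The 10 contigs were split into 5 of the ubiquitin-proteasome system and 5 other proteases and peptidases. The cells were Dunaliella tertiolecta, strain UTEX LB-999, a unicellular alga of saline water without a rigid cell wall. Both libraries came from a chemostat, in which inflow and outflow hold a culture at steady state, run at 25 °C with 0.5 M NaCl and a light flux of 40 µmol photons m-2 s-1. The flux was raised to 400 µmol photons m-2 s-1, and RNA was extracted 4 h later for one library and 8 h later for the other. Both libraries therefore come from cells already under the stronger light, and no library from before the shift was analysed here. With 1 library per time point no difference below has a replicate check, and each one compares these libraries, not the conditions.

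Cells remove proteins by several routes. In the cytosol and nucleus, a conjugating enzyme (E2) takes activated ubiquitin and, with a ligase, passes it to a target, and chains of ubiquitin send the target to the 26S proteasome, a barrel-shaped 20S core closed by regulatory particles. The chloroplast uses proteases of bacterial descent instead, among them the stromal Clp complex, whose core is built from ClpP and ClpR subunits, and the serine proteases of the Deg family. In plants and algae, Deg and FtsH proteases are known for the repair of photosystem II in strong light, and Clp for general protein turnover in the stroma.

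Levels are the authors' mean RPKM, which divide a contig's reads by its length and by the reads of its library. They correspond to 674129 reads in the 8 h library and 556037 in the 4 h library, so that each member rested on 13 to 37 reads in the 2 libraries together. The 95% intervals of levels are exact Poisson intervals, those of folds are exact binomial (Clopper-Pearson) intervals on the reads, and both cover counting error only. Every listed contig had a fold of at least 2 by the authors' own choice, which the folds below therefore share. The deposited columns of means name neither sample, and 8 h and 4 h were told apart by the contrast and the ratio given beside them. Gene names are those of the best hit in Chlamydomonas reinhardtii, another green alga.

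The 10 contigs were listed in both directions, 5 higher and 5 lower at 8 h. Of all 234 listed contigs 57.3% were higher and 42.7% lower, so the members' share was near the background. The higher ones were the E2 UBC10, a ubiquitin-like protein, the 20S proteasome subunit PBD1 and the plastid Clp subunits CLPR2 and CLPT1. The lower ones were ubiquitin-conjugating enzyme 27, a PCI domain protein, DEG2, a zinc-dependent exopeptidase and a contig of the Clp protease/crotonase family. Folds ran from 2.23 to 3.57 in the higher members and from 2.12 to 2.73 in the lower ones. The interval of the fold lay on one side of 1 for 2 of the 10, PBD1 and CLPR2, against 52.1% of all listed contigs. These were 2 of the 5 higher members, against 50% of the higher list, and 0 of the 5 lower members, against 55% of the lower list.

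Each of the E2 contigs was in a different list. UBC10 (best hit Cre06.g294850.t1.1), described as ubiquitin carrier protein 1, stood at 25.9 RPKM at 8 h (interval 13.8 to 44.3) and 7.24 RPKM at 4 h (1.49 to 21.2), on 13 and 3 reads. The 8 h level was the higher one, and the intervals of the levels overlapped. Its fold, 3.57 (0.982 to 19.6), was the largest among the 10 members and ranked 31 of 134 in the higher list. The interval of that fold began just under 1.

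Ubiquitin-conjugating enzyme 27 (best hit Cre01.g046850.t1.1), whose Arabidopsis namesake is an E2 with a ubiquitin-associated domain, had the opposite order. Its level was 9.29 RPKM at 8 h (3.41 to 20.2) and 22.5 RPKM at 4 h (11.6 to 39.4), on 6 and 12 reads. The fold was 2.42 lower at 8 h (0.842 to 7.87). Within a library, where the scaling between libraries cancels, UBC10 was at 2.79 times the level of ubiquitin-conjugating enzyme 27 at 8 h and at 0.321 times its level at 4 h. These values restate the folds of the contigs, which were paired after their opposite directions were known. They add no evidence to either fold.

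A contig described as a ubiquitin-like superfamily protein (best hit Cre17.g725050.t1.1) was listed as higher. The description names a fold that ubiquitin shares with proteins of other functions, and gives no role. It stood at 21.8 RPKM at 8 h (10.4 to 40.1) and 7.92 RPKM at 4 h (1.63 to 23.2), on 10 and 3 reads. The fold of 2.75 (0.708 to 15.5) had an interval that included equal levels.

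Of the 2 members described as proteasome components 1 was higher and 1 lower at 8 h, beside 57.3% higher among all listed contigs. PBD1 (best hit Cre14.g610950.t1.1), described as a beta subunit of the 20S core, was the higher one and the member with the highest 8 h level. It stood at 45.0 RPKM at 8 h (29.6 to 65.4) and 20.2 RPKM at 4 h (9.68 to 37.1), on 27 and 10 reads. Its fold was 2.23 (1.04 to 5.16), the smallest of the higher members and one with an interval above 1.

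RPN6 (best hit Cre02.g097650.t1.1) carries the symbol of a subunit of the proteasome's regulatory lid but is described as non-ATPase subunit 9, so it was not found by the wording and is not among the 10. It was added after its values were seen. Its level was 34.0 RPKM at 8 h (22.96 to 48.6) and 15.1 RPKM at 4 h (7.55 to 27.1), on 30 and 11 reads, a fold of 2.25 (1.10 to 4.98). The level of PBD1 was 1.32 times that of RPN6 at 8 h and 1.33 times at 4 h. These proportions restate the folds of contigs that were paired after their values were seen, and add no evidence to either fold. The ratio of these proportions was 0.990, with an interval from 0.323 to 3.06 that leaves room for a 3-fold shift either way.

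The contig described as a proteasome component (PCI) domain protein (best hit Cre16.g651500.t1.1) went the other way. The PCI domain is found in subunits of the proteasome lid, of the COP9 signalosome and of translation initiation factor eIF3, so the description does not say which complex is meant. It stood at 8.07 RPKM at 8 h (2.62 to 18.8) and 19.6 RPKM at 4 h (9.38 to 36.0), on 5 and 10 reads. The fold was 2.42 lower at 8 h (0.755 to 9.04).

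**Figure D1:**
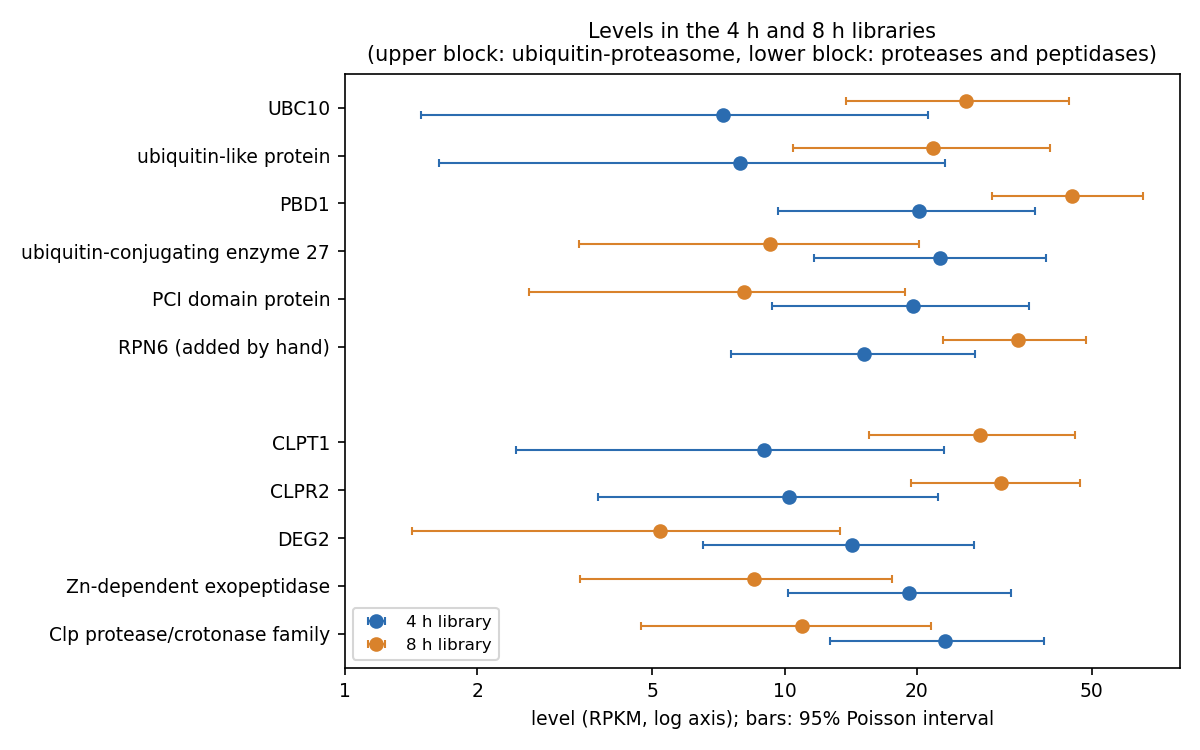
Authors' mean RPKM of each contig in the 4 h library (blue) and the 8 h library (orange) on a log axis, with 95% Poisson intervals on the reads as bars; the upper block holds the ubiquitin-proteasome contigs and RPN6, the lower block the other proteases and peptidases. PBD1 is highest at 8 h, at 45.0 RPKM, and DEG2 lowest, at 5.22 RPKM.

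Both named subunits of the plastid Clp complex were listed as higher at 8 h, beside 57.3% of all listed contigs. CLPR2 (best hit Cre16.g682900.t1.1) is a ClpR-type subunit of the core ring, a type that lacks the catalytic residues of ClpP. It stood at 31.0 RPKM at 8 h (19.4 to 47.0) and 10.3 RPKM at 4 h (3.76 to 22.3), on 22 and 6 reads, a fold of 3.02 (1.19 to 9.12). Together with PBD1 it was one of the members whose interval lay above 1.

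CLPT1 (best hit Cre17.g696400.t1.1) is an accessory subunit of the plastid Clp core, although its description joins ribosomal protein L12 with a ClpS-type adaptor. Its level was 27.8 RPKM at 8 h (15.5 to 45.8) and 8.98 RPKM at 4 h (2.45 to 22.995), on 15 and 4 reads. The fold of 3.09 (0.985 to 12.8) had an interval that began just under 1. The level of CLPR2 was 1.12 times that of CLPT1 at 8 h and 1.14 times at 4 h. The ratio of these proportions was 0.978 (0.172 to 4.98), an interval too wide to say that the subunits moved alike. Summed, these contigs held 58.8 RPKM at 8 h and 19.2 RPKM at 4 h.

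A further contig with Clp in its description, of the ATP-dependent Clp protease/crotonase family (best hit Cre02.g091850.t1.1), was lower. That name covers a protein superfamily to which enoyl-CoA hydratases also belong, and it does not identify a Clp subunit. It stood at 10.9 RPKM at 8 h (4.72 to 21.6) and 23.2 RPKM at 4 h (12.7 to 38.9), on 8 and 14 reads. Its fold of 2.12 lower at 8 h (0.831 to 5.84) was the smallest of the 10.

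DEG2 (best hit Cre02.g092000.t1.2) was the member with the lowest level at 8 h. The symbol is that of a serine protease of the chloroplast stroma in Arabidopsis, while the description reads DegP protease 10, a family member placed in mitochondria there, so the compartment is not settled by the annotation. Its level was 5.22 RPKM at 8 h (1.42 to 13.4) and 14.2 RPKM at 4 h (6.51 to 27.02), on 4 and 9 reads. The fold was 2.73 lower at 8 h (0.761 to 12.1), the largest of the lower members and rank 49 of 100 in the lower list.

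In the 4 h library the level of CLPR2 was 0.721 times that of DEG2, and in the 8 h library 5.94 times. For CLPT1 the corresponding proportions were 0.631 at 4 h and 5.32 at 8 h. Both share the DEG2 reads and come from contigs of opposite lists, so they describe the levels and support nothing beyond the folds. The level intervals of DEG2 and of either Clp subunit overlapped at 4 h and did not at 8 h.

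The remaining member was described as a zinc-dependent exopeptidase superfamily protein (best hit Cre18.g747100.t1.2), a family of enzymes that cut amino acids from the ends of peptides. It stood at 8.51 RPKM at 8 h (3.42 to 17.5) and 19.2 RPKM at 4 h (10.2 to 32.8), on 7 and 13 reads. The fold was 2.25 lower at 8 h (0.835 to 6.66), with an interval that included equal levels.

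**Figure D2:**
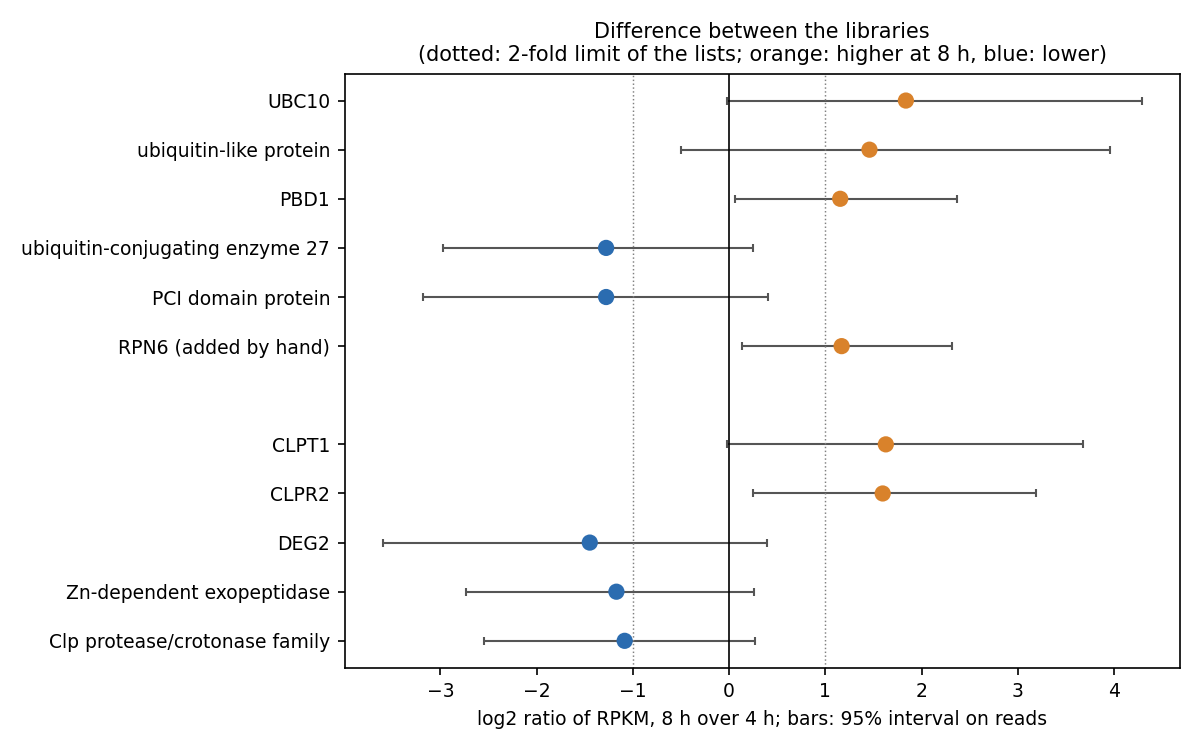
Log2 ratio of RPKM, 8 h over 4 h, for each contig, with 95% exact intervals on the reads; orange points were listed as higher at 8 h and blue points as lower, and dotted lines mark the authors' limit of 2-fold. The intervals of PBD1, CLPR2 and the added RPN6 stay above 0, and those of all 5 lower contigs cross it.

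By class, 3 of the 5 ubiquitin-proteasome contigs and 2 of the 5 proteases and peptidases were higher, against 57.3% of all listed contigs. The summed level of the ubiquitin-proteasome contigs was 110.0 RPKM at 8 h and 77.4 RPKM at 4 h, that of the proteases and peptidases 83.5 and 75.8 RPKM. Over all listed contigs the sums were 6810 RPKM at 8 h and 7638 RPKM at 4 h. PBD1 alone held 45.0 RPKM of the ubiquitin-proteasome sum at 8 h and 20.2 RPKM at 4 h. A fold of at least 3 was found in UBC10, CLPT1 and CLPR2, or 3 of the 5 higher members, beside 41.8% of all higher contigs. Of the 5 lower members 0 reached it, beside 33% of all lower contigs. The median fold of the higher members was 3.02, beside 2.75 in the whole higher list, and that of the lower members 2.42, beside 2.67 in the whole lower list. The median log2 ratio of the 10 was 0.03, beside 1.14 over all listed contigs. With 5 members on each side it is only the midpoint between the smallest differences of the 2 directions, those of PBD1 and the Clp protease/crotonase contig.

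The order of the members by level differed between the libraries, mainly because higher and lower members changed places. At 8 h PBD1, CLPR2, CLPT1, UBC10 and the ubiquitin-like protein led, and DEG2 came last. At 4 h the Clp protease/crotonase contig and ubiquitin-conjugating enzyme 27 led, followed by PBD1, and UBC10 came last. Within the higher members PBD1, CLPR2 and CLPT1 led in both libraries. Within the lower members the Clp protease/crotonase contig and ubiquitin-conjugating enzyme 27 led and DEG2 came last in both. Since the members were listed for a difference between these libraries, part of this exchange is fixed by that choice. All 9 pairs of neighbours in each order had overlapping Poisson intervals. Of 45 pairs of members 10 had intervals that did not overlap at 8 h, 5 of them between PBD1 and each of the lower contigs, and 0 of 45 at 4 h. The same share was not computed over all listed contigs, so these counts do not set the members apart from the lists.

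In the authors' deposited table, 4 of the 10 members had an FDR under 0.05, against 32.5% of all listed contigs. They were CLPR2 at 0.0258, UBC10 at 0.0290, PBD1 at 0.0326 and CLPT1 at 0.0370, and the ubiquitin-like protein had an FDR of 0.114 there. In the authors' deposited table the FDR of the 5 lower members ran from 0.156 for ubiquitin-conjugating enzyme 27 to 0.246 for DEG2. A Wald test with the RPKM values put in as if they were counts gave the p-values of the authors' deposited table for all 10 members, to within 0.0273%. Such a test does not use the reads. UBC10 and CLPT1 had FDRs under 0.05 in the authors' deposited table and read-based intervals that included 1.

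**Figure D3:**
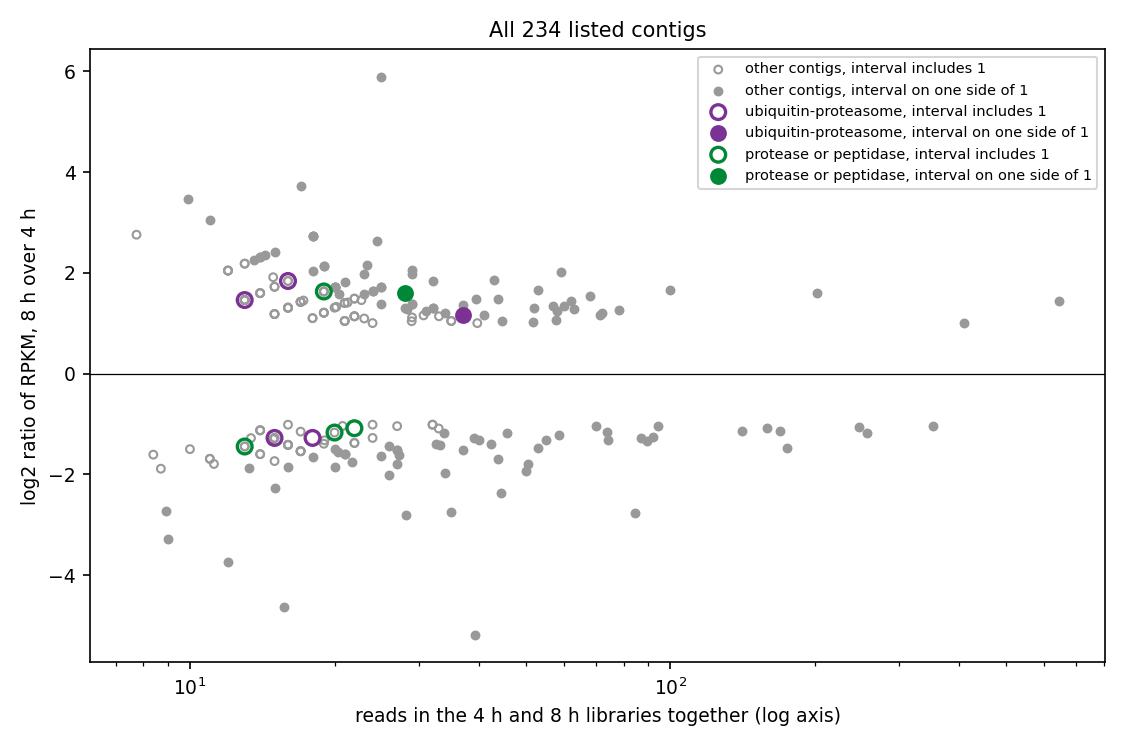
Log2 ratio of RPKM, 8 h over 4 h, against the reads in both libraries together (log axis) for all 234 listed contigs; purple marks ubiquitin-proteasome contigs, green proteases and peptidases, grey all others, and filled points have a 95% interval on one side of 1. The members lie between 13 and 37 reads, and the 2 filled ones, PBD1 and CLPR2, are those with the most reads.

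The members were alike in having whole read counts, but not in the number of transcripts assembled at their locus. Of the 10, 5 were the only transcript there, beside 56.8% of all listed contigs. PBD1, CLPR2, CLPT1, the PCI domain protein and the Clp protease/crotonase contig were each 1 of 2 to 4 transcripts. How reads were divided among such transcripts was not tested. All 10 had whole raw totals, against 68.8% of all listed contigs. A whole total does not show that no read was shared with another contig. Their largest E value was 5e-35, for CLPT1, and no 2 members had the same best hit. Contig lengths ran from 681 bases for the ubiquitin-like protein to 1220 for the exopeptidase, with a median of 938.5 beside 1094.5 over all listed contigs. The members had a median of 18.5 reads in both libraries together, beside 21.0 over all listed contigs.

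**Figure D4:**
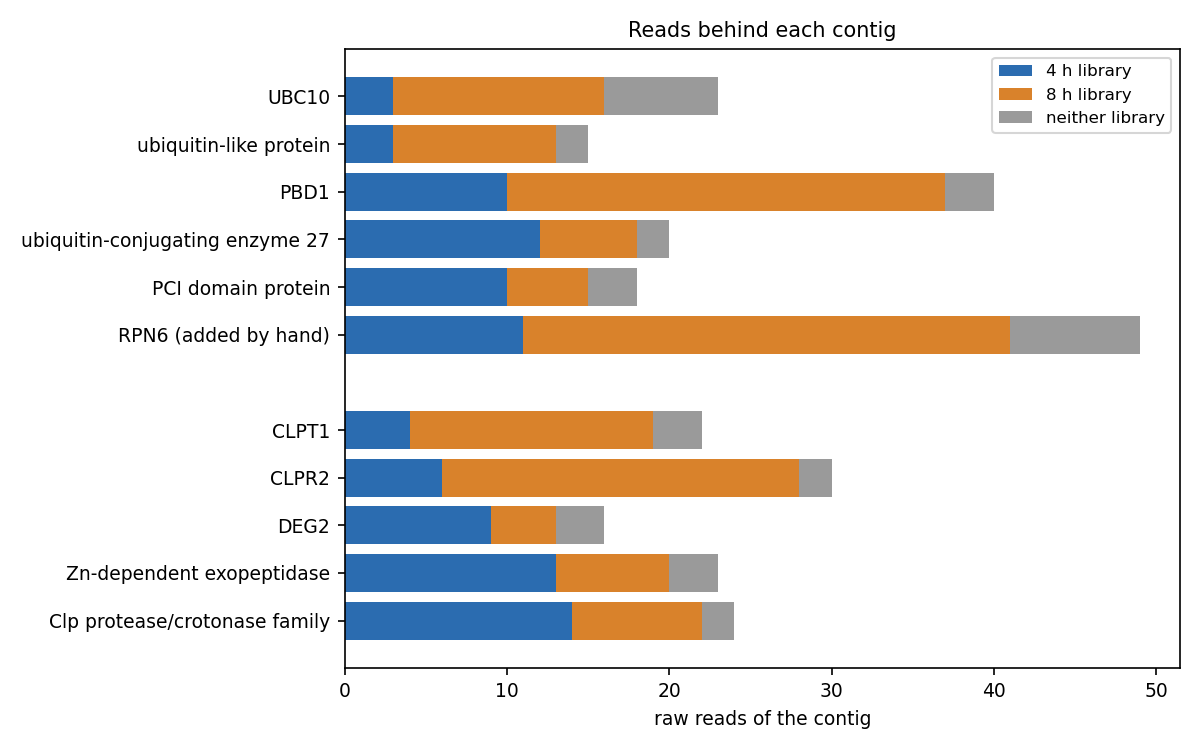
Raw reads of each contig in the 4 h library (blue), the 8 h library (orange) and neither of them (grey, the raw total less both). UBC10 has 7 reads in neither library beside 3 at 4 h and 13 at 8 h, and RPN6 has 8.

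Contigs of neighbouring steps of protein supply and turnover were sought in the lists by the wording of their symbols and descriptions. Of 8 contigs matched to chaperones and folding, 3 were higher and 5 lower, beside 57.3% higher among all listed contigs. The interval excluded 1 for 5 of the 8, near the 52.1% of all listed contigs, and these were the 3 higher ones and 2 lower ones. FKB62, a prolyl isomerase of the FKBP family, stood at 4.74 RPKM at 8 h and 19.2 RPKM at 4 h, 4.04-fold lower (1.57 to 12.3). FKB53, another FKBP, stood at 44.0 and 13.3 RPKM, 3.30-fold higher (1.20 to 11.2). One of the 8, ASF1, is a histone chaperone matched by its wording.

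All 5 contigs matched to the ribosome and translation were higher, with folds from 2.00 to 3.30, beside 57.3% higher among all listed contigs. The interval excluded 1 for 2 of them, beside 50% of the higher list. The largest, MRPS19, a mitochondrial ribosomal protein, stood at 19.0 RPKM at 8 h and 5.76 RPKM at 4 h, a fold of 3.30 (0.890 to 18.2). The list for autophagy and the vacuole held 1 contig, a vacuolar iron transporter at 3.70-fold lower (0.808 to 41.9), which is no part of protein breakdown. The list for ATPases of protein quality control also held 1, RFC3, a subunit of the clamp loader of DNA replication matched by its AAA domain, at 2.60-fold lower (0.997 to 7.53). Of ubiquitin ligases and their adaptors, 0 contigs matched the wording. Only listed contigs were analysed here, so these counts say nothing about genes that the authors did not list.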

How the data were processed

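Stranded mRNA libraries were prepared with a kit of the TruSeq type, per the labels' protocols. Partek is the tool named in the submitters' processing notes. For the aligner, the assembler and the reference, the sources used here give no name. The authors' deposited means are RPKM per contig. Their columns name neither sample, and the first was taken as 8 h because the deposited ratio and its contrast read 8 vs 4. The authors' deposited table also holds that ratio, its natural log, p-values, a signed fold score for lower contigs, and raw totals, an estimated count over all libraries in their model. Every listed p was under 0.05.

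Reads were recovered as RPKM times contig length over a constant, which was the same within 0.01% in all 134 higher rows and 97 of 100 lower rows. For all 10 members they came out whole within 0.001 reads. No test between conditions was made, apart from recomputing the authors' p-values of the members with a Wald test on RPKM. The code for the intervals of folds was tested on simulated data. Members, lists, pairs and alternatives were chosen with earlier results of these data known. All 10 members are named, with the largest fold per direction of each related list. Members were removed from the related lists. RPN6 and the pairs were added after values were seen. No sequence was used here. As alternatives, a 4-fold limit, an FDR under 0.001, at least 10 reads, an E value under 1e-20, hand-read members, a 99% interval, whole totals and pseudocounts of 1 and 0.1 RPKM were tried. Computations ran in Python 3.11.15 with scipy 1.17.1, pandas 2.3.3 and numpy 2.4.6, and plots in matplotlib 3.10.9.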

Additional observations from a re-analysis of the deposited data

Results flagged for a closer look

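The raw totals in the authors' deposited table cover more than the 4 h and 8 h libraries. All 10 members and RPN6 had reads in neither library, and UBC10 and RPN6 had more than 3. UBC10 had 7 reads in neither library, or 30.4% of its raw total of 23. These were more than its 3 reads at 4 h, and they amount to 48.6 RPKM summed over other libraries, whose number the labels do not state. RPN6 had 8 reads in neither library, or 16.3% of its 49. More than 3 such reads were common in the lists, at 99 of 234 contigs (42.3%), against 1 of the 10 members. The other 9 members had 2 or 3 such reads each. These came to between 10.2 RPKM, for ubiquitin-conjugating enzyme 27, and 20.9 RPKM, for CLPT1, summed over those libraries. Over the 10 members the share was 13.0%, beside 15.2% over all listed contigs. What the other libraries were is not stated in the labels.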

How the results depend on the processing

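With a fold of at least 4, and likewise with an FDR under 0.001 in the authors' deposited table, 0 members remained in either direction and in either class, since their largest fold was 3.57 and their smallest FDR 0.0258. No median could be formed there. With 99% intervals, 0 of the 10 members had an interval on one side of 1, against 2 with 95%. How many of all listed contigs passed the 4-fold, FDR and 99% limits was not counted. These counts therefore do not set the members apart from the lists. Read by hand, the members were 8. The PCI domain protein and the Clp protease/crotonase contig, both lower, were left out for names that fix no role. So was the ubiquitin-like protein, which was higher. The exopeptidase, also named by a superfamily, was kept, and RPN6, which was higher, was added after its values were seen. Then 5 were higher and 3 lower, beside 57.3% higher among all listed contigs. Of the 8, 3 had a 95% interval on one side of 1, beside 52.1% of all listed contigs. The median log2 ratio was 1.16 in place of 0.03. With at least 10 reads in the higher library, which removes DEG2, the median log2 ratio was 1.155 over 9 members. An E value under 1e-20 and whole raw totals removed no member. A pseudocount of 1 RPKM kept the sign of all 11 named contigs and moved their log2 ratios by 0.04 to 0.15. No paired analysis was possible because each time point has 1 library and the result comes from no test. The members had 13 to 37 reads each, and the 2 with an interval on one side of 1 had 28 and 37.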
